A study of Mus musculus with 5 samples.

Results

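The 9 genes described here, Utf1, Foxd3, Bcl6b, Fgf5, Tdgf1, Pim2, Slc7a3, Enpp3 and Dppa5a, are known from the post-implantation epiblast and from pluripotent cells, and were taken by name from a table of 49671 mouse genes. They were chosen by their SO− against SO+ values in these embryos, so those values are given as a description, without a test, and nothing is supported with them. Single embryos were dissected at about E6.75, the extra-embryonic ectoderm (ExE) was removed, and polyadenylated RNA of the epiblast and its overlying visceral endoderm (VE) was amplified by SmartSeq2 and sequenced. The study asked which transcripts alter first once Oct4, the product of Pou5f1, is lost at the onset of gastrulation. SO+ embryos (n = 2) were Sox2Cre-/-; Oct4 fl/+, carrying no Cre and a floxed allele beside an intact allele of Oct4. SO− embryos (n = 3) were Sox2Cre+/-; Oct4 fl/-, which adds Cre to a floxed and a null allele, on the same mixed strain background. Cre is driven by the promoter of Sox2 and acts mainly in the epiblast. LoxP sites enclose exons 2 to 5 of the floxed allele, so exon 1 lies outside the deleted part, while the counts are per whole gene. Whether these embryos were littermates is not given in the sources used here.

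The epiblast is the epithelium from which the whole fetus derives. Before implantation its cells are in a naive state, and after implantation they enter a primed state, in which Fgf5, Otx2 and the DNA methyltransferases are high, while they remain pluripotent until gastrulation allocates them to germ layers. Oct4 is a POU domain transcription factor shared by both states that binds DNA through an octamer motif, often together with a SOX partner. Among the genes described, Utf1, Foxd3 and Bcl6b encode nuclear regulators of transcription, Fgf5 and Tdgf1 act in cell signalling, Pim2 is a kinase, Slc7a3 a membrane transporter, Enpp3 a cell surface enzyme and Dppa5a an RNA-binding protein.

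The genes lie on 7 chromosomes, with Pim2 and Slc7a3 on the X chromosome and Tdgf1 and Dppa5a on chromosome 9. Gene coordinates are those of GENCODE M21 on GRCm38. Promoter windows from RefSeq on GRCm38.p6 were matched for 6 of them (Utf1, Foxd3, Fgf5, Pim2, Tdgf1 and Enpp3), and the 250 bases before the annotated start were searched for short motif letters on both strands. The letters were the octamer ATGCAAAT, its overlapping shorter forms ATGCAAA and TGCAAA, the SOX-type letters CATTGT and the TATA-type letters TATAAA, and they were searched after the Pim2 promoter had been seen. The Pim2 window held 2 octamers, and 32 of 32851 windows of all genes (0.0974%) held at least 2. With the last letter dropped, Pim2 held 3 matches, a number reached in 7 windows (0.0213%). The sequences of Pim2, Utf1 and Fgf5 are given to show the contrast within the set, Pim2 for its matches, Utf1 as a gene far lower in the SO− embryos with no match, and Fgf5 as a gene with no match that was not lower. Each sequence is in lower case on the strand of the gene, ends before its first annotated exon, and has ATGCAAA or its reverse complement in capitals.
Pim2, chrX:7878056-7878261, plus strand: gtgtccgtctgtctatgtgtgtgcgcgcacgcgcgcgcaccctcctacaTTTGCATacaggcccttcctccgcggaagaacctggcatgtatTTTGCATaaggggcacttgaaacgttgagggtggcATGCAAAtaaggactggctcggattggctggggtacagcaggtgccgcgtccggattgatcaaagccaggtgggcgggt
Utf1, chr7:139943606-139943788, plus strand: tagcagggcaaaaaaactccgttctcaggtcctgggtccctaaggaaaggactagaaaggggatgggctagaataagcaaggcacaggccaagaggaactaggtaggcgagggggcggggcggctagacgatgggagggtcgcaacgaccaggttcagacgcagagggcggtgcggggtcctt
Fgf5, chr5:98253934-98254183, plus strand: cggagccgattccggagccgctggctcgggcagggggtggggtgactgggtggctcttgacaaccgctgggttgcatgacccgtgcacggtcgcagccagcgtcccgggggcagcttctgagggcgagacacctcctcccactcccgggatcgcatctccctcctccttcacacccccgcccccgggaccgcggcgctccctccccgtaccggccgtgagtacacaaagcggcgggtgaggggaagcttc

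In the Pim2 window the full octamers spanned bases −202 to −195 (on the reverse strand) and −123 to −116 before the start, and the shorter form alone spanned −158 to −152. Distances are counted from the RefSeq start, which for Utf1, Pim2 and Enpp3 lies inside the span that GENCODE gives the gene. At least 1 octamer was present in 1.60% of all windows, at least 1 ATGCAAA in 4.13% and at least 1 TGCAAA in 13.5%. The Enpp3 window held SOX-type letters at −118 to −113, found in 10.7% of windows, and TATA-type letters at −209 to −204, found in 12.4%. No listed letters were present in the windows of Utf1, Foxd3, Fgf5 or Tdgf1, which says only that these letters are not in these windows. Base composition separated the genes: the GC content was 70.8% for Fgf5, 65.6% for Foxd3, 62.0% for Pim2 and 61.6% for Utf1, against 42.0% for Tdgf1 and 36.8% for Enpp3, with a median of 52.4% over all windows. The former 4 held 14 to 24 CpG dinucleotides, Tdgf1 held 7 and Enpp3 5, where the median window held 6.

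**Figure D1:**
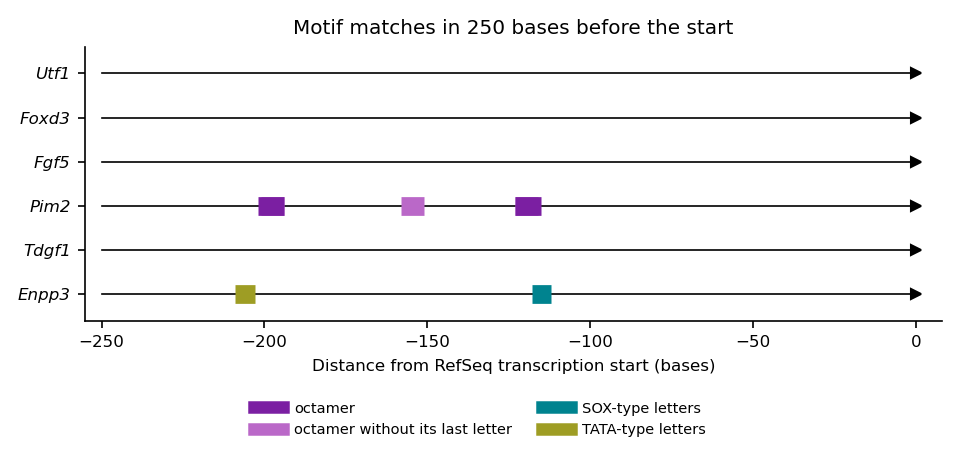
Motif matches in the 250 bases before the RefSeq start of 6 of the genes, drawn by distance from the start in bases, with 1 line per gene and a coloured block per match on either strand. Pim2 carries 3 blocks of octamer letters, Enpp3 1 SOX-type and 1 TATA-type block, and the other lines are empty.

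Depth differed between the genotypes, and it limits the lowly expressed genes. Total counts were 27538119 and 27047148 in the SO+ embryos and 4134617, 1117566 and 4191498 in SO− embryos 1 to 3, so that 3 counts, taken as the smallest dependable signal, stood for 0.109 and 0.111 CPM (the count scaled to the library total, as counts per 1e6) against 0.726, 2.68 and 0.716 CPM. Such limits cover counting error only. Both SO+ libraries carried one second sequencing index and all SO− libraries another, so index and genotype cannot be told apart. The deleted gene followed the labels. Pou5f1 stood at 920.2 CPM in SO+ embryo 1 and 435 CPM in SO+ embryo 2, against 27.8, 12.5 and 43.7 CPM in SO− embryos 1, 2 and 3, a log2 fold change of −4.43 ± 0.33 (SE), for which the quasi-likelihood test of edgeR gave an adjusted p of 3.94e-05, with 2.30e-53 to 0.0639 over the alternatives. Fold changes throughout are SO− over SO+ on the log2 scale. In all, 283 of 12067 genes tested (2.35%) passed an adjusted p of 0.05, 112 lower (0.928%) and 171 higher (1.42%) in the SO− embryos.

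All 9 genes passed the filter on low counts, Foxd3 and Bcl6b only through their SO+ embryos. Their median log2 fold change was −0.70, and that over all genes tested was −0.0019. As the 9 were chosen by this contrast, the difference between these medians is not a result. They are grouped under the name primed epiblast genes that depend on Oct4, yet not all were lower in the SO− embryos. Dependence on Oct4 was not tested. In 6 genes (Utf1, Foxd3, Bcl6b, Slc7a3, Pim2 and Tdgf1) every SO− embryo was below both SO+ embryos, a pattern found in 15.6% of all genes. Enpp3 had the opposite arrangement, found in 13.9%, and the genotypes overlapped for Fgf5 and Dppa5a. Since the genes were chosen by this contrast, nothing is read from these counts. Summed over the 9 genes, the level was 3002 and 2846 CPM in the SO+ embryos against 1871, 1364 and 2246 CPM in the SO− embryos, or 0.285 to 0.300% against 0.136 to 0.225% of all counts.

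**Figure D2:**
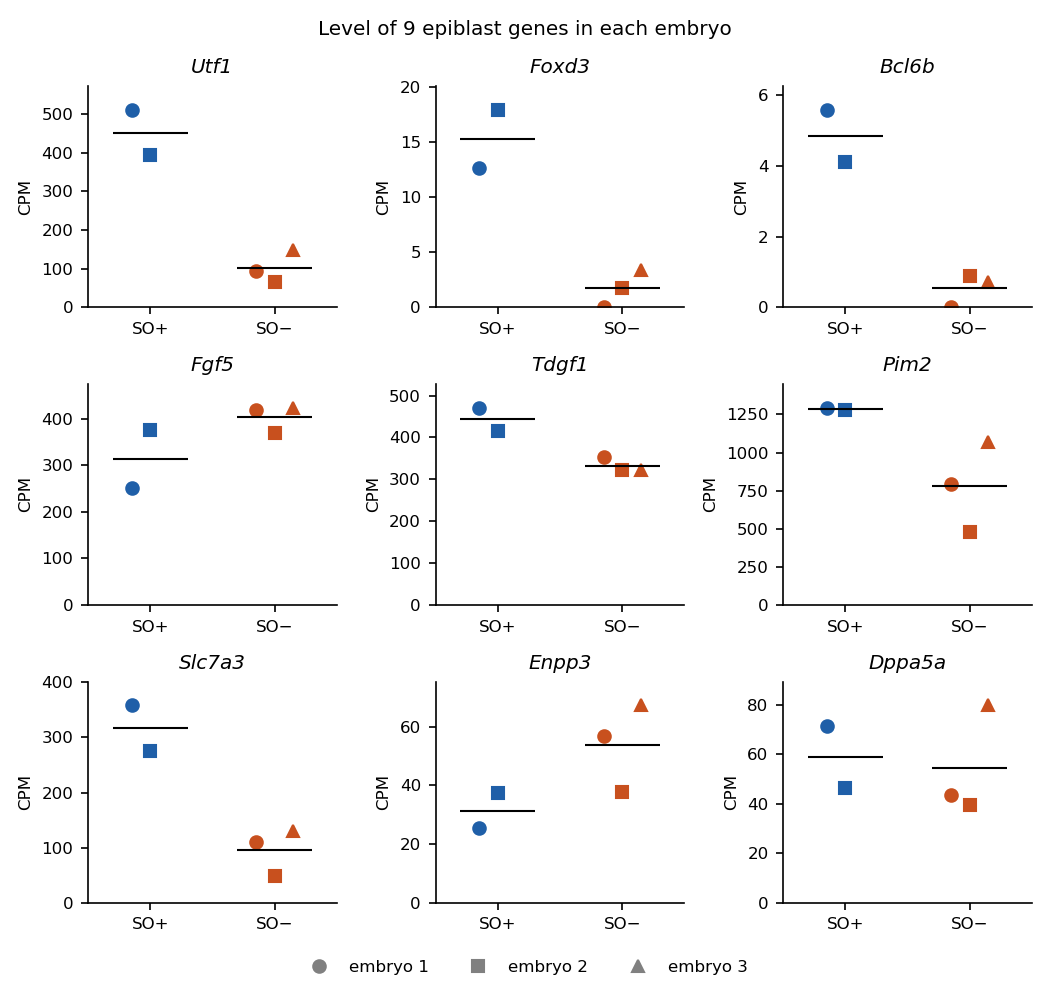
Level of each of the 9 genes in each embryo, in CPM on a linear axis that starts at 0, with a bar at the genotype mean (n = 2 SO+, n = 3 SO−). Utf1, Foxd3, Bcl6b and Slc7a3 show a wide gap between genotypes, that of Bcl6b resting on at most 3 counts per SO− embryo. Pim2 and Tdgf1 show a narrow gap, Fgf5 and Dppa5a overlap, and Enpp3 is higher in the SO− embryos.

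Per length of exon (FPKM, the CPM divided by the kilobases of merged exons), the order of levels in the SO+ embryos ran from Pim2 at a mean of 461 and Utf1 at 368 through Tdgf1 at 169, Fgf5 at 125, Dppa5a at 95.03 and Slc7a3 at 83.8 to Foxd3 at 6.57, Enpp3 at 5.22 and Bcl6b at 1.30 FPKM. Neighbours whose SO+ embryos overlapped were Fgf5 with Dppa5a, Dppa5a with Slc7a3, and Foxd3 with Enpp3. In SO− embryos Pim2 was still first at 279 FPKM, followed by Fgf5 at 162, Tdgf1 at 127, Dppa5a at 87.6, Utf1 at 83.4, Slc7a3 at 25.4, Enpp3 at 8.96, Foxd3 at 0.736 and Bcl6b at 0.144. There the overlapping neighbours were Tdgf1 with Dppa5a, Dppa5a with Utf1, and Foxd3 with Bcl6b. Utf1 thus moved from the second place to the fifth, while its per-length level stayed above that of 90.6% of tested genes even in SO− embryo 2.

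Utf1 encodes a chromatin-associated cofactor of pluripotent cells, from a gene of 2 exons at chr7:139943789-139945112. Its level was 511 CPM in SO+ embryo 1 and 393 CPM in SO+ embryo 2, against 92.9, 65.3 and 149 CPM in SO− embryos 1, 2 and 3. The lowest SO+ embryo was 2.64 times the highest SO− embryo. The shallowest library still held 73 counts, where the SO+ mean would give 504.8. The log2 fold change was −2.08 ± 0.23 (SE), and the SO− mean was 22.7% of the SO+ mean.

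Foxd3, a forkhead factor required to maintain the epiblast, is a single-exon gene at chr4:99656299-99658622. It stood at 12.6 and 17.9 CPM in the SO+ embryos against 0, 1.79 and 3.34 CPM in the SO− embryos. SO− embryo 1 held no count, where the SO+ mean would have given 63.1. The 95% Poisson interval of a count of 0 reached up to 0.892 CPM there. SO− embryos 2 and 3 held 2 and 14 counts against 17.1 and 64.0. All were far below both SO+ embryos, and the fitted log2 fold change was −3.16 ± 0.67 (SE). Without SO− embryo 3, which held most of the SO− counts, it was −5.21, and without SO− embryo 1 it was −2.40. The microRNA gene Gm23366 shares 89 bases with the Foxd3 exon on the same strand and held 0 counts in every embryo.

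Bcl6b, a zinc finger repressor related to Bcl6, was the lowest of the 9 genes (chr11:70224128-70229798). It reached 5.59 and 4.10 CPM in the SO+ embryos, from 154 and 111 counts, and 0, 0.895 and 0.716 CPM in the SO− embryos, from 0, 1 and 3 counts. None of the SO− embryos exceeded 3 counts, yet together they held 4 where the SO+ mean would give 45.8. The 1 count of SO− embryo 2 carried a 95% Poisson interval of 0.0227 to 4.99 CPM, which spans SO+ embryo 2. Its log2 fold change, −3.45 ± 0.82 (SE), had the widest error in the set. It was −2.66 without SO− embryo 1, which held no count, and −4.52 without SO− embryo 3.

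Of the signalling genes, Fgf5 was not lower in the SO− embryos. Fgf5 is a secreted fibroblast growth factor and a standard marker of the primed epiblast (chr5:98254184-98277030, 3 exons). The values were 251 and 377 CPM in the SO+ embryos against 420.1, 369.6 and 424 CPM in the SO− embryos. SO− embryo 2 fell within the SO+ range, and the other two were above it. The log2 fold change was 0.38 ± 0.15 (SE), ranging from 0.11 without SO+ embryo 1 to 0.70 without SO+ embryo 2. The spread between the control embryos, 1.503-fold, was larger than the difference of the genotype means, 1.29-fold.

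Tdgf1, also called Cripto, is a cell surface co-receptor for Nodal, the ligand that patterns the epiblast (chr9:110939603-110946158, minus strand). It stood at 471 and 414 CPM in the SO+ embryos against 354, 323 and 322 CPM in the SO− embryos. The genotypes did not overlap, but the gap was narrow, with the lowest SO+ embryo 1.17 times the highest SO− embryo. The log2 fold change was −0.40 ± 0.10 (SE), the smallest error of the 9, and it turned positive when levels were taken relative to epiblast markers (0.58, or 0.12 without Dnmt3b among them). A processed pseudogene, Tdgf1-ps1, held 178 and 210 counts in SO+ and 11 to 27 in the SO− embryos, where Tdgf1 itself held 12984 and 11211 and 361 to 1463. How reads common to both copies were counted is not given in the sources used here.

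Receptors and partners of these signalling genes showed no call. Of 16 listed, 15 were tested and none passed an adjusted p of 0.05 in edgeR, DESeq2 or limma-voom, with 2 at an unadjusted p under 0.05 in edgeR and a median log2 fold change of −0.02. Fgfr1, a main epiblast receptor for fibroblast growth factors, had a log2 fold change of −0.03 ± 0.15 (SE), and its relative Fgfr2 had 1.18 ± 0.46 (adjusted p = 0.258 from edgeR), with overlapping genotypes. Of the Nodal receptor subunits, Acvr1b and Acvr2b had −0.25 ± 0.24 and −0.02 ± 0.21, whereas Acvr2a had 0.56 ± 0.21 (adjusted p = 0.237 from edgeR). Acvr2a, at 19.4 and 18.2 CPM in SO+ and 26.4, 29.5 and 27.4 CPM in the SO− embryos, was the only gene of the list whose genotypes did not overlap. The Nodal-dependent transcription factor Foxh1 had −0.19 ± 0.13. Without SO+ embryo 2, 1 gene of the list passed.

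Pim2, a serine/threonine kinase that favours survival and growth (chrX:7878262-7883432), had the highest level of the 9 genes. It was almost equal in the SO+ embryos, at 1295 and 1280.2 CPM, and scattered in the SO− embryos, at 795, 478 and 1069 CPM. Every SO− embryo was lower, but SO− embryo 3 retained 83.0% of the SO+ mean and SO− embryo 2 only 37.1%. The log2 fold change was −0.70 ± 0.22 (SE) and became 0.18 relative to summed epiblast markers. With SO− embryo 2 left out it was −0.46. Its promoter, shown above, was the only one of the 6 searched that held an octamer.

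Slc7a3, a transporter of the cationic amino acids arginine and lysine (chrX:101079210-101086020, minus strand), reached 358 and 276 CPM in the SO+ embryos. In SO− embryos it was at 109.6, 48.3 and 130.3 CPM. The genotypes were well apart, by 2.12-fold between their nearest embryos, and the log2 fold change was −1.64 ± 0.25 (SE). Its SO− mean was 30.3% of the SO+ mean. As Pim2 and Slc7a3 are X-linked, sex-linked transcripts were also examined. Ddx3y, on the Y chromosome, was present in all 5 embryos at 37.0 to 52.2 CPM, and Xist, the RNA that coats an inactive X chromosome, stood at 1.45 and 8.73 CPM in SO+ and at 1.21, 4.47 and 18.6 CPM in the SO− embryos.

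Enpp3, an ectonucleotide pyrophosphatase that splits extracellular nucleotides (chr10:24772406-24842823, minus strand), was the only gene of the 9 with every SO− embryo higher. It stood at 25.5 and 37.4 CPM in the SO+ embryos against 56.8, 37.6 and 67.3 CPM in the SO− embryos. SO− embryo 2 and SO+ embryo 2 were all but equal, and the 42 counts of the former carried a 95% Poisson interval of 27.1 to 50.8 CPM, which spans the latter. This gave a log2 fold change of 0.83 ± 0.24 (SE).

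Dppa5a, an RNA-binding protein with a KH domain that marks pluripotent cells (chr9:78367052-78368177, minus strand), did not separate the genotypes. It was at 71.2 and 46.4 CPM in the SO+ embryos against 43.5, 39.4 and 79.7 CPM in the SO− embryos. The highest of all 5 embryos was SO− embryo 3. Its log2 fold change of −0.06 ± 0.26 (SE) changed sign with the embryo left out, from −0.49 to 0.27.

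**Figure D3:**
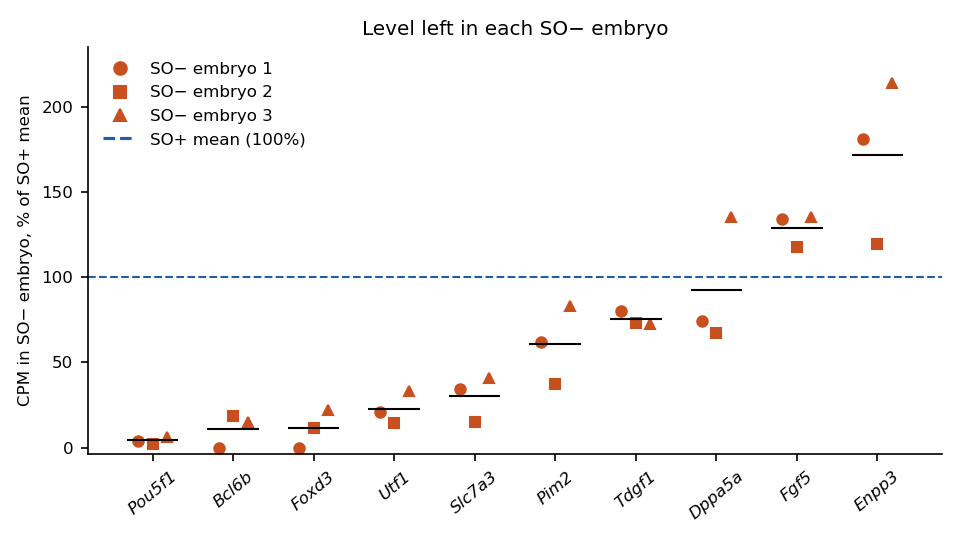
CPM of Pou5f1 and the 9 genes in each SO− embryo as a percentage of the SO+ mean (dashed line at 100%), with a bar at the mean of the 3 SO− embryos. Pou5f1 is left at 1.85 to 6.44%, Bcl6b, Foxd3, Utf1 and Slc7a3 at 0 to 41.1%, Pim2 and Tdgf1 at 37.1 to 83.0%, and Enpp3 is at 119.6 to 214%.

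The SO− embryos were not alike. Pou5f1 was lowest in SO− embryo 2 and highest in SO− embryo 3, at 1.85, 4.10 and 6.44% of the SO+ mean in embryos 2, 1 and 3. The same order held for 6 of the 9 genes (66.7%), namely Utf1, Fgf5, Pim2, Dppa5a, Slc7a3 and Enpp3, and for 2409 of 12067 genes tested (19.96%). Foxd3 and Bcl6b, with few counts, and Tdgf1, with embryos nearly level, had other orders. With 3 embryos of which the shallowest was lowest, no relation to Pou5f1 can be tested. The SO+ embryos differed in Pou5f1 by 2.11-fold, whereas the median ratio of SO+ embryo 1 to SO+ embryo 2 was 1.14 over the 9 genes and 1.003 over all genes tested.

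Epiblast markers were lower in the SO− embryos when summed, while single markers took both directions. In such bulk samples fewer cells of a type and less RNA per cell cannot be told apart. The 7 epiblast markers (Sox2, Pou3f1, Dnmt3b, Sall2, Zic2, Sox3 and Nanog) summed to 4320 and 3578 CPM in the SO+ embryos against 1909, 1645 and 2595 CPM in the SO− embryos, in the same order among SO− embryos as Utf1, Pim2 and Slc7a3. None was at 0 in any embryo, and most of the sum was Dnmt3b. Of the 6 tested, 3 were lower and 1, Sox2, was higher without overlap, patterns found in 15.6% and 13.9% of all genes. Only Dnmt3b passed an adjusted p of 0.05 in edgeR. Sox2 and Nanog had log2 fold changes of 0.56 ± 0.34 and 0.02 ± 0.15 (SE). The 14 VE markers, including Afp, Ttr and Apoa1, summed to 4822 and 4998 CPM in the SO+ embryos against 6912, 6982 and 4513 CPM in the SO− embryos, none at 0. All 14 were tested, 13 had a higher fitted level in the SO− embryos with a median log2 fold change of 0.39, and none passed an adjusted p of 0.05 in edgeR, DESeq2 or limma-voom (6 at an unadjusted p under 0.05 in edgeR). Without SO− embryo 3, Cubn (adjusted p = 0.0230), Ttr (0.0492), Apoa1 (0.0275), Apob (0.0117) and Rbp4 (0.0162) passed as higher in edgeR. With either of the other SO− embryos left out, none of the 14 VE markers passed in edgeR. Calls of VE markers also appeared without SO+ embryo 2 but not without SO+ embryo 1. Such fits keep only 1 SO+ embryo and hold no spread between controls. The absence of VE calls thus depended on which embryos were kept. The part of this tissue balance in the levels of the 9 genes was not tested.

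Markers of the ExE and of immune and maternal cells were scarce. The 9 ExE markers summed to 24.1 and 32.1 CPM in SO+ and 44.1 to 74.3 CPM in the SO− embryos, with Elf5 at 0 in SO− embryo 2 and Rhox9 at 0 in all SO− embryos, and Hand1, among the 7 tested, was higher (3.04 ± 0.52, adjusted p = 0.00754 from edgeR). Without SO− embryo 1 or SO− embryo 2 this call was lost, with adjusted p of 0.0783 and 0.128 in edgeR. The 11 immune and maternal markers summed to at most 7.14 CPM, with Ptprc, C1qa, C1qb, C1qc, Lyz2, Tyrobp and Prl8a2 at 0 throughout. The 9 mesoderm and primitive streak markers summed to 522 and 809.7 CPM in SO+ and 568 to 732 CPM in the SO− embryos. None of the 8 tested passed in edgeR, DESeq2 or limma-voom (1 at an unadjusted p under 0.05 in edgeR). None passed in edgeR with an SO− embryo left out. Calls did appear with either SO+ embryo left out, in fits that keep only 1 SO+ embryo and hold no spread between controls.

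When levels were expressed relative to the summed epiblast markers in place of the library total, the median of all genes shifted to 0.95 on the log2 scale. On that scale Utf1 was at −1.22, Foxd3 at −2.39, Bcl6b at −2.61 and Slc7a3 at −0.79, so these 4 were lower in the SO− embryos on either scale. Pim2 (0.18), Tdgf1 (0.58) and Dppa5a (0.82) turned to positive values that were below the median of all genes, while Fgf5 (1.31) and Enpp3 (1.69) were above it. Leaving Dnmt3b out of the markers, a choice made after the values were seen, gave a median of 0.50 over all genes, with Pim2 at −0.27, Tdgf1 at 0.12 and Dppa5a at 0.34. The other scalings moved the median of all genes by less than 0.1 and turned no sign of the 9.

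**Figure D4:**
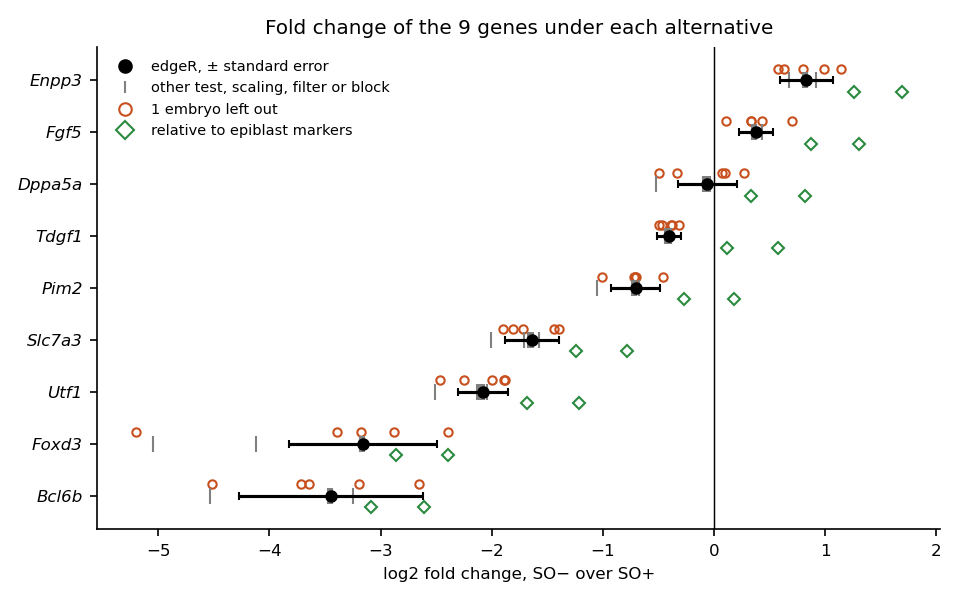
Log2 fold change, SO− over SO+, of the 9 genes from edgeR with its standard error (black), under other tests, scalings, filters or a replicate block (grey ticks), with 1 embryo left out (open circles) and relative to summed epiblast markers with or without Dnmt3b (diamonds). Utf1, Foxd3, Bcl6b and Slc7a3 are below 0 and Fgf5 and Enpp3 above 0 at every point, while points for Pim2, Tdgf1 and Dppa5a are on both sides.

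Family relatives of the 9 genes took both directions where they were measurable. Of 18 listed relatives, 9 were tested, of which 2 passed higher and none lower in edgeR. DESeq2 called these 2 and also Enpp2, which was lower. The median log2 fold change of the tested relatives was 0.31. Pim1, which shares the kinase family with Pim2, rose from 28.6 and 16.3 CPM in the SO+ embryos to 52.5, 39.4 and 55.6 CPM in the SO− embryos, a log2 fold change of 1.17 ± 0.25 (SE, adjusted p = 0.0273 from edgeR). Pim3 was at −0.13 ± 0.19 (adjusted p = 0.861). Cfc1, also called Cryptic, the other Nodal co-receptor of the Tdgf1 family, rose from 20.4 and 22.5 CPM to 38.5, 58.2 and 33.9 CPM, a log2 fold change of 0.96 ± 0.23 (SE, adjusted p = 0.0495 from edgeR). Both calls were lost in limma-voom. That of Pim1 was also lost without either SO− embryo 1 (adjusted p = 0.256), 2 (0.167) or 3 (0.112) or SO+ embryo 2 (0.0503), and that of Cfc1 without SO+ embryo 1 (0.130), SO− embryo 1 (0.239) or SO− embryo 2 (0.248). Whether a relative differed from its partner among the 9 was not tested.

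The remaining tested relatives did not pass in edgeR. Fgf4, a ligand of the naive and early epiblast, stood at 9.44 and 7.84 CPM in SO+ and 1.45, 1.79 and 4.53 CPM in the SO− embryos, a log2 fold change of −1.63 ± 0.50 (SE, adjusted p = 0.140 from edgeR), on the other side of 0 from Fgf5. Enpp2, which makes the lipid mediator lysophosphatidic acid, was at −1.23 ± 0.33 (adjusted p = 0.0823 from edgeR and 0.0384 from DESeq2) beside the 0.83 of Enpp3. The transporters Slc7a1 and Slc7a4 were at 0.72 ± 0.42 and 0.11 ± 0.61, Bcl6 at 0.89 ± 0.71 and Ooep, a KH-domain relative of Dppa5a, at 0.31 ± 0.59, all at 8.05 CPM or below. Foxd1, Foxd2, Foxd4, Fgf6, Khdc3, Khdc1a, Khdc1b, Slc7a2 and Enpp1 had too few counts to be tested, none above 1.79 CPM in any embryo.

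**Figure D5:**
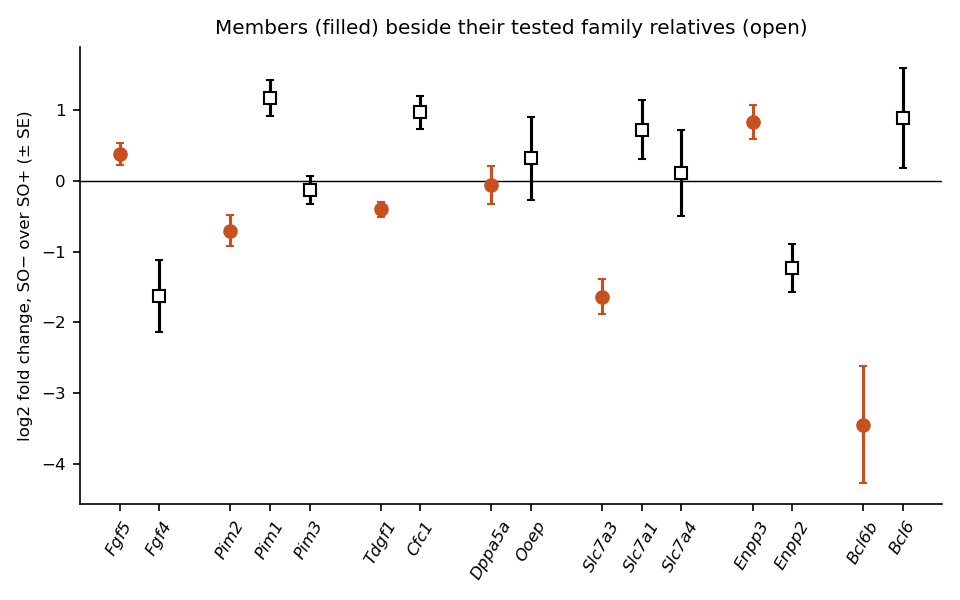
Log2 fold change, SO− over SO+, with its standard error, of 7 of the 9 genes (filled) beside their tested family relatives (open). Pim1 and Cfc1 lie above 0 where Pim2 and Tdgf1 lie below (though these are above 0 relative to summed epiblast markers), and Fgf4 and Enpp2 lie below 0 where Fgf5 and Enpp3 lie above.

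Among 25 other genes of the post-implantation epiblast, 23 were tested, and 5 passed lower and 2 higher in the SO− embryos, with a median log2 fold change of −0.30. The genes that fell were Dnmt3b (3983 and 3263 CPM in SO+, 1708, 1447 and 2286 CPM in the SO− embryos), a de novo DNA methyltransferase, at −0.99 ± 0.15 (SE, adjusted p = 0.00392 from edgeR), its relative Dnmt3a at −0.73 (adjusted p = 0.0424), the zinc finger factor Zic5 at −0.97 (0.0376), the ligand Wnt8a at −2.59 (0.0118) and the Myc family factor Mycn at −0.85 (0.00426). The ligand Fgf8 rose from 137.7 and 123.1 CPM to 306, 333 and 295 CPM, at 1.26 ± 0.11 (SE, adjusted p = 1.25e-04), as did the neural cadherin gene Cdh2 at 0.97 (adjusted p = 0.0445, both from edgeR). Core members of the primed state were among those that did not pass, with Otx2 at −0.23 ± 0.12 (SE), Pou3f1 at −0.84 ± 0.35 and Nodal at −0.19 ± 0.17. Without SO− embryo 1 or SO− embryo 2 only Fgf8 passed, and without SO+ embryo 1 there were 4 calls.

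Of 17 naive pluripotency genes, 7 had enough counts to be tested and none passed in edgeR, DESeq2 or limma-voom (3 at an unadjusted p under 0.05 in edgeR), with a median log2 fold change of 0.15. Without SO+ embryo 2, 1 passed. Among those tested, Tfcp2l1 and Prdm14 were higher in every SO− embryo, an arrangement found in 13.9% of all genes. Fgf4 was lower in every SO− embryo, as were 15.6% of all genes. Tfcp2l1 stood at 16.6 and 15.9 CPM in SO+ and at 26.1, 28.6 and 16.9 CPM in the SO− embryos. Prdm14, with few counts, stood at 0 and 0.739 CPM in SO+ and at 4.35, 2.68 and 1.91 CPM in the SO− embryos. Esrrb, Klf2 and Klf4, which were not tested, stayed at or below 1.79 CPM in all embryos. Of 10 pluripotency genes common to both states, 9 were tested and 2 fell, Pou5f1 itself and L1td1, an RNA-binding protein, which went from 155 and 126 CPM to 41.1, 30.4 and 42.0 CPM (−1.84 ± 0.16, adjusted p = 1.25e-04 from edgeR). Lin28a and Sall4 were at 0.06 ± 0.11 and 0.04 ± 0.10.

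The profiles most like the mean of the 9 genes were looked for over all tested genes, by the root mean square difference of log2(CPM + 1) after centring each gene on its mean over the 5 embryos. The nearest were Zic5 (0.0807), Itga3 (0.0872), Dnmt3b (0.0955), Ddah1 (0.0975), Rragd (0.0991), Nek1 (0.110), Cnnm4 (0.112), Pmm1 (0.115), Enho (0.116) and Cdyl (0.119). Zic5 stood at 47.0 and 46.6 CPM in SO+ and at 18.6, 20.6 and 30.5 CPM in the SO− embryos. With a pseudocount of 0.5 in place of 1, 5 of these 10 (Zic5, Cdyl, Itga3, Dnmt3b and Ddah1) were again among the nearest 10. Pou5f1 was not close to this mean profile, at rank 12035 with a difference of 1.84.

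Nearest profiles were also sought for each gene singly. These were Spock2 for Utf1 (0.136), Lurap1l for Foxd3 (0.614), BC002163 for Fgf5 (0.0477), Alms1 for Tdgf1 (0.0300), Dedd2 for Pim2 (0.0736), Necab2 for Slc7a3 (0.0954), Cyp7b1 for Enpp3 (0.0926) and Klf12 for Dppa5a (0.0624). Within the set the closest pairs were Fgf5 with Enpp3 (0.264) and Utf1 with Slc7a3 (0.283). Likeness over 5 embryos of unequal depth is a description only.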

How the data were processed

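RNA was sequenced from 2 SO+ and 3 SO− single embryos, grouped by the sample labels. After adapter removal the authors used STAR for alignment to GRCm38/mm10 and HTSeq for counting by gene, and deposited raw counts. SmartSeq2 attaches no molecular identifiers, and use of strand in counting is not given in the sources used here. Between libraries of 1 genotype, chi-square over its degrees of freedom was 2.89 to 32.7, above sampling noise, and all 5 embryos were kept.

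Counts were fitted in R 4.3.3 by the quasi-likelihood test of edgeR 4.0.16 (filterByExpr, TMM factors, genotype as the only term, Benjamini-Hochberg adjustment over 12067 genes). The standard error is the absolute log2 fold change over the square root of F. The p-values measure the spread between these embryos. Alternatives were DESeq2 1.42.0, limma-voom (limma 3.58.1), other scalings and filters, each embryo left out and the replicate number as a block. The fit was tested on simulated data. FPKM used merged exons of GENCODE M21 on the same build, matched for 99.3% of genes. The 9 genes and the lists were chosen with earlier results of these data known. Genes named are the 9, Pou5f1, listed genes with an adjusted p under 0.05, all family relatives and the nearest profiles. Other list members were named as background for their list, after their values were seen. Results on some listed or nearest genes are not reported here. Promoter windows of Dppa5a, Slc7a3 and Bcl6b were not used here.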

Additional observations from a re-analysis of the deposited data

How the results depend on the processing

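The log2 fold changes of Utf1, Foxd3, Bcl6b, Slc7a3, Fgf5 and Enpp3 kept their sign in all 16 alternatives, that of Pim2 in 15, of Tdgf1 in 14 and of Dppa5a in 11. Their median, −0.70, was −1.01 to −0.46 with 1 embryo left out, 0.18 relative to summed epiblast markers and −0.27 without Dnmt3b among them, the last added after the data were seen. The signs that turned were those of Pim2 (0.18), Tdgf1 (0.58) and Dppa5a (0.82) relative to epiblast markers, of Tdgf1 (0.12) and Dppa5a (0.34) without Dnmt3b, and of Dppa5a with an embryo left out (−0.49 to 0.27, positive at 0.27 without SO+ embryo 1, 0.10 without SO− embryo 1 and 0.08 without SO− embryo 2). The cause was not tested.

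Calls over all genes, 283, were 91 in limma-voom and 35 to 573 with 1 embryo left out (35 without SO− embryo 2, 46 without SO− embryo 1, 180 without SO+ embryo 1 and 573 without SO+ embryo 2). For the other epiblast genes, 7 calls became 3 in limma-voom and 1 to 8 with an embryo left out, for general pluripotency genes 2 became 1 in limma-voom, and for naive genes and for receptors and partners 0 became 0 to 1 with an embryo left out. For family relatives, 2 became 3 in DESeq2, which added Enpp2 as lower, 0 in limma-voom, 1 with RLE factors, 1 with upper quartile factors, 1 with library totals alone and 0 to 2 with an embryo left out.

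Same-numbered embryos are different animals, and the sample labels give no pairing. Their deviations from the genotype mean correlated at −0.0085 (number 1) and 0.12 (number 2) over 12067 genes. These values cannot decide on a pairing, since the deviations of the 2 SO+ embryos are exact opposites. With the replicate number as a block, under which SO− embryo 3 stands alone in its block, there were 929 calls over all genes, 13 among other epiblast genes, 3 among naive genes, 4 among relatives and 1 among receptors and partners, and the median of the 9 genes was −1.05. Depth limits Foxd3 and Bcl6b most, with 16 and 4 counts in all SO− embryos.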
